A study of Caenorhabditis elegans with 23 samples.

Results

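The histone genes of Caenorhabditis elegans were read on 67 of the 22548 probe sets of the array. They were chosen by name alone: a probe set was taken where it names a gene whose symbol begins with his- or hil- and a number, or names htz-1, hcp-3 or cpar-1. The 67 probe sets name 83 histone genes, which are all 83 genes of that kind in the RefSeq gene table. Transcripts had been measured in whole worms on 23 arrays, one sample to an array. Worms of glp-1(e2141ts) and of wild type (WT, strain N2) were each given ash-2 RNAi or the empty vector (EV), and were taken at the L3 larval stage or on day 8 of adult life. Each group has 3 arrays except day 8 WT EV, which has 2, because the submitters dropped its number 3 for quality. ash-2 encodes a subunit of the complex that places methyl groups on lysine 4 of histone H3, and EV worms received the same feeding vector with no insert. The glp-1 gene encodes the Notch receptor that keeps germline stem cells dividing, and the e2141ts worms form few germ cells per the labels. All worms grew at 20 degrees, and a period at a restrictive temperature is not stated. Whether arrays of one group stand for separate worm cultures is not in the labels, so p-values measure the spread among these samples, which may be technical.

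Histones package DNA. The core proteins H2A, H2B, H3 and H4 form the nucleosome, and the linker histone H1 binds the DNA between nucleosomes. Core histone genes exist in many near-identical copies, are transcribed mainly while DNA is being copied, and most of their mRNAs end in a stem-loop in place of a poly(A) tail. Variants come from genes present in one or a few copies and replace a core protein at particular places: H2A.Z near promoters, H3.3 in transcribed chromatin, and CENP-A along the centromeric surface of the worm's chromosomes. In the adult worm the somatic cells no longer divide, so that dividing cells are those of the germline and, inside the mother, of embryos.

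Of the 67 probe sets, 43 read core histone genes (9 for H2A, 10 for H2B, 11 for H3, 12 for H4 and 1 for H2A and H2B together). The other 24 read linkers (13), H3 variants (7), CENP-A (2) and H2A.Z (2). A probe set is called shared where its name ends in _s_at or _x_at, or where it names several genes, since it can then bind several transcripts. That holds for 51 of the 67, and for 39 of the 43 core probe sets, so most core values belong to a group of copies and not to 1 gene. The 4 core probe sets that are not shared read his-35 (H2A), his-37 (H4), his-41 (H2B) and his-67 (H4). Probe sets that name several genes are written below with those genes joined by a slash. Another 27 name 1 gene but are shared by their suffix, so a single gene name does not mean an unshared probe set. Among them are those of hcp-3, his-74, his-71, his-72, his-1, his-4, his-31, his-38, his-39, his-42, his-62 and his-68. The core genes lie in clusters on chromosome V (26 genes), chromosome IV (22) and chromosome II (13), with 2 each on chromosomes I and X.

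Values are log2 intensities as deposited, and 1 unit is a doubling. The primer used to label the RNA is not given. How much of the core histone mRNA without a poly(A) tail the arrays read is therefore not known. L3 and day 8 arrays appear to have gone through separate normalizations, with array medians of 5.724 to 5.910 at L3 and 4.894 to 5.012 on day 8, so no level is compared between ages. A probe set is said to have risen or fallen where limma's adjusted p, taken over all probe sets, was under 0.05. Germ cell genes averaged 5.5 to 5.67 on L3 glp-1 EV arrays and 8.32 to 8.49 on L3 WT EV arrays, and oocyte genes averaged 5.74 to 5.77 on day 8 glp-1 EV arrays and 11.86 to 12.18 on day 8 WT EV arrays. The 3 shared probe sets naming ash-2 read 4.54 to 8.29 higher on the arrays labelled ash-2 RNAi in every genotype and age. The 1 ash-2 probe set that is not shared fell by 1.82 on day 8 in WT, and its changes of -0.33, -0.24 and -0.40 in L3 WT, L3 glp-1 and day 8 glp-1 did not pass. The 2 arrays of day 8 WT EV stood apart from each other: array 2 was above array 1 for 63 of the 67 histone probe sets, with a median gap of 0.52 against 0.04 over all probe sets.

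**Figure D1:**
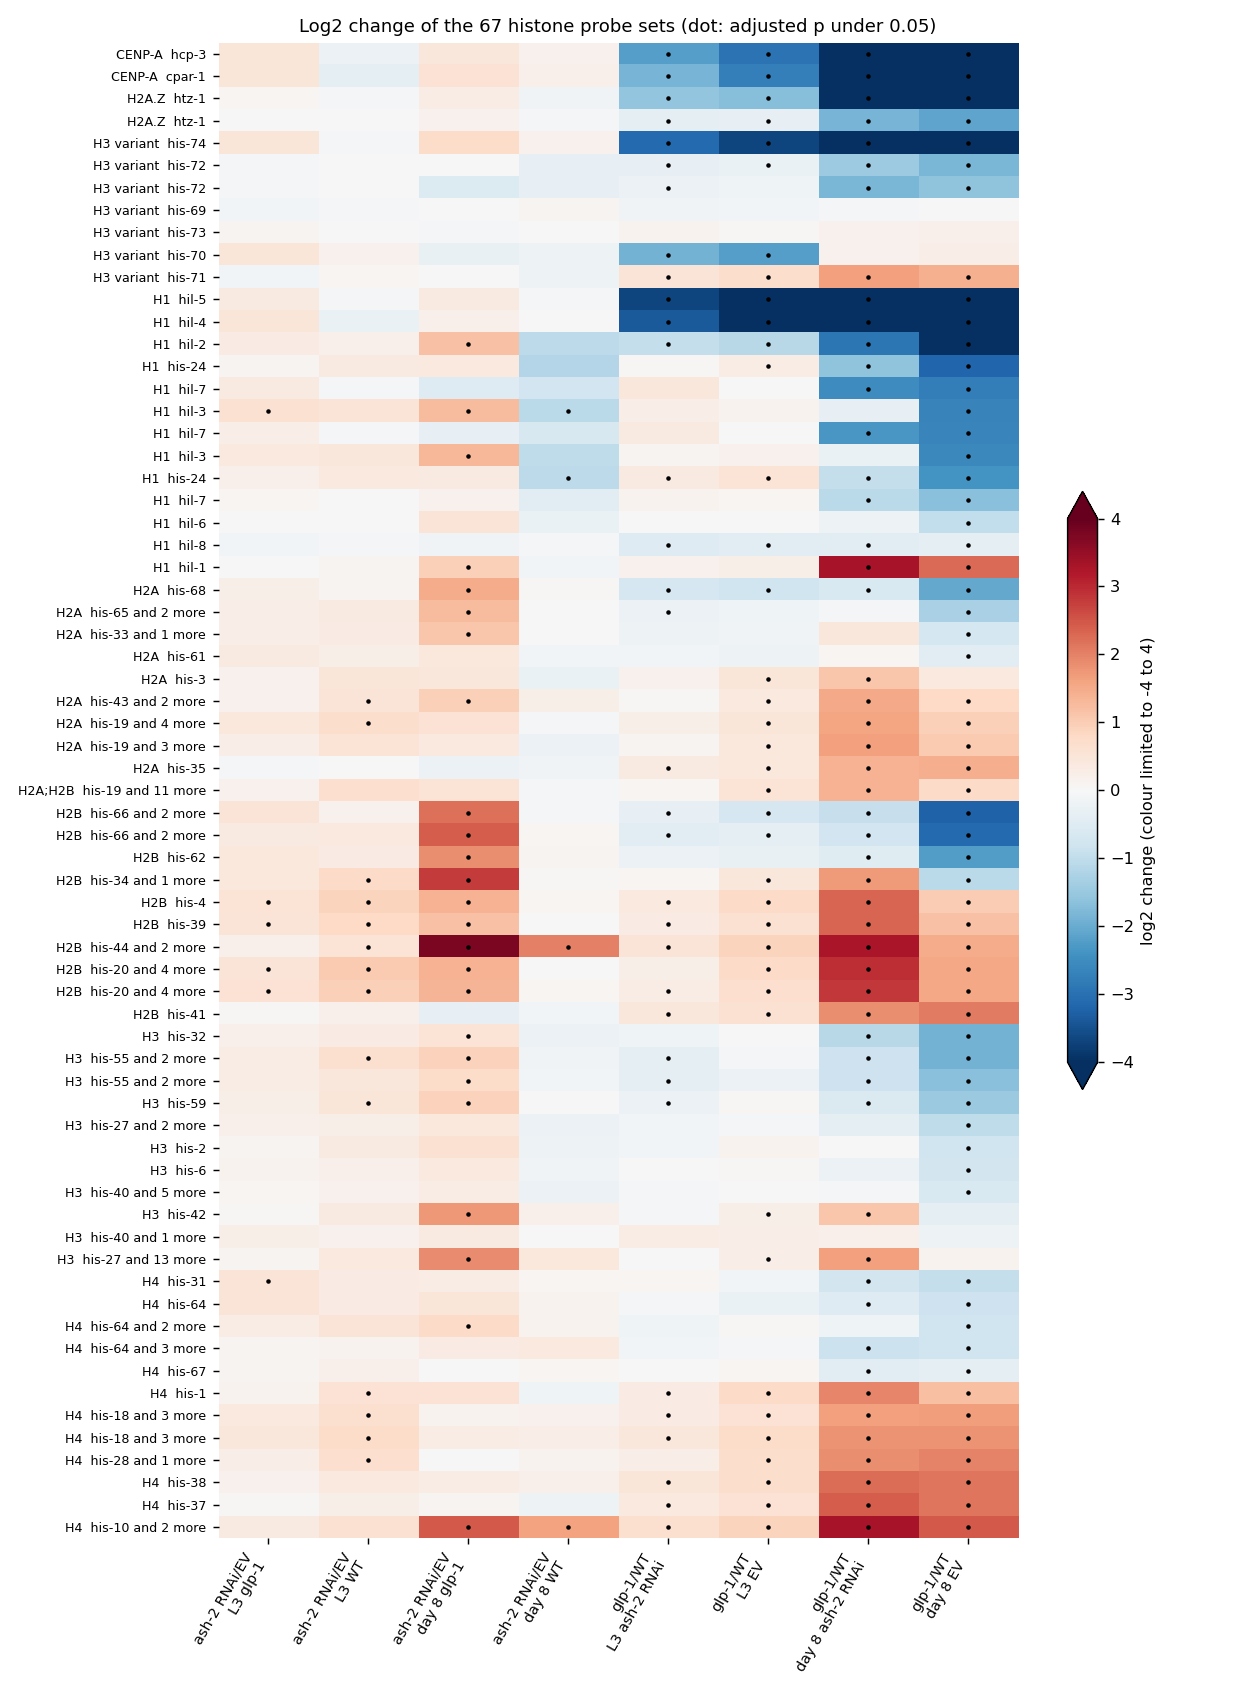
Log2 change of each of the 67 histone probe sets (rows, grouped by class) in the 8 comparisons within an age (columns), with red for higher and blue for lower and a dot where the adjusted p was under 0.05. On day 8 dark blue marks CENP-A, his-74, hil-4, hil-5, hil-2 and the brighter htz-1 probe set in glp-1 against WT, while core histones run in both directions; with arrays centred on muscle and neuron genes the glp-1 columns shift down and most red cells at L3 lose their dots.

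The first question is which histone transcripts differed in worms that form few germ cells. In glp-1 worms under EV, 14 probe sets were lower and 25 higher than in WT at L3 (39 of 67, or 58.2%; of all probe sets 55.5% passed, 22.1% lower and 33.4% higher). On day 8 under EV, 40 were lower and 20 higher (60 of 67, or 89.6%; of all probe sets 54.9% passed, 26.6% lower and 28.3% higher). The median change of the 67 was 0.05 at L3 and -0.80 on day 8, where that of all probe sets was 0.11 and 0.04. The largest falls belonged to variants and linkers, and most rises to core genes. In whole worms, fewer cells of a type and less RNA per cell cannot be told apart.

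Both CENP-A genes fell in glp-1. hcp-3, the main CENP-A of the worm, read 5.62, 5.94 and 5.97 on L3 glp-1 EV arrays and 8.85, 8.78 and 8.71 on L3 WT EV arrays. On day 8 it read 4.07, 4.70 and 4.19 in glp-1 EV and 10.05 and 10.22 in WT EV. The groups were far apart at both ages, by -2.94 ± 0.17 at L3 (SE, adjusted p = 1.69e-08) and -5.82 ± 0.18 on day 8 (adjusted p = 4.66e-10). Its paralog cpar-1, read on a probe set that is not shared, averaged 6.04 ± 0.39 in L3 glp-1 EV and 8.77 ± 0.19 in L3 WT EV (SD, n = 3 each). On day 8 cpar-1 averaged 4.87 ± 0.25 in glp-1 EV (SD, n = 3) and 9.81 ± 0.10 in WT EV (SD, n = 2), a change of -4.94 with an adjusted p of 2.91e-09. In day 8 glp-1 EV both genes, and his-74 and hil-4 below, read near or under the array medians of 4.969 to 5.012, and the deposited values do not show whether they were above background there, so the sizes of these day 8 falls are uncertain.

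Among the linkers, hil-4 and hil-5 had the largest falls of all 67 probe sets at both ages under EV. hil-5 read 8.61, 8.49 and 7.62 in L3 glp-1 EV, against 12.45, 12.45 and 12.21 in L3 WT EV, a 17.4-fold difference. On day 8 hil-5 read 6.44, 6.54 and 6.07 in glp-1 EV, against 13.04 and 12.95 in WT EV, and its change of -6.65 ± 0.24 is the largest among the 67 under EV (adjusted p = 1.27e-09). hil-4 changed by -4.11 ± 0.32 at L3 and by -6.58 ± 0.18 on day 8 (adjusted p = 2.24e-07 and 2.22e-10). These 2 linker probe sets are not shared, and no glp-1 array overlapped the WT arrays at either age.

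his-74, an H3 variant, read 7.34, 7.16 and 6.63 in L3 glp-1 EV and 10.82, 10.78 and 10.54 in L3 WT EV. On day 8 his-74 read 4.25, 5.2 and 5.45 in glp-1 EV and 10.78 and 10.98 in WT EV. It fell by 3.67 at L3 and by 5.91 on day 8 (adjusted p = 1.47e-08 and 6.58e-09). The H2A.Z gene htz-1 was lower in glp-1 at both ages on its brighter probe set, with changes of -1.71 at L3 and -4.46 on day 8 (adjusted p = 2.84e-08 and 1.01e-09), and read 8.50, 8.46 and 8.33 in day 8 glp-1 EV against 12.80 and 12.97 in day 8 WT EV. Its second probe set gave smaller changes, of -0.34 and -2.12, and in day 8 glp-1 EV it read 4.97 to 5.07, near the array medians. Both htz-1 probe sets are shared.

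**Figure D2:**
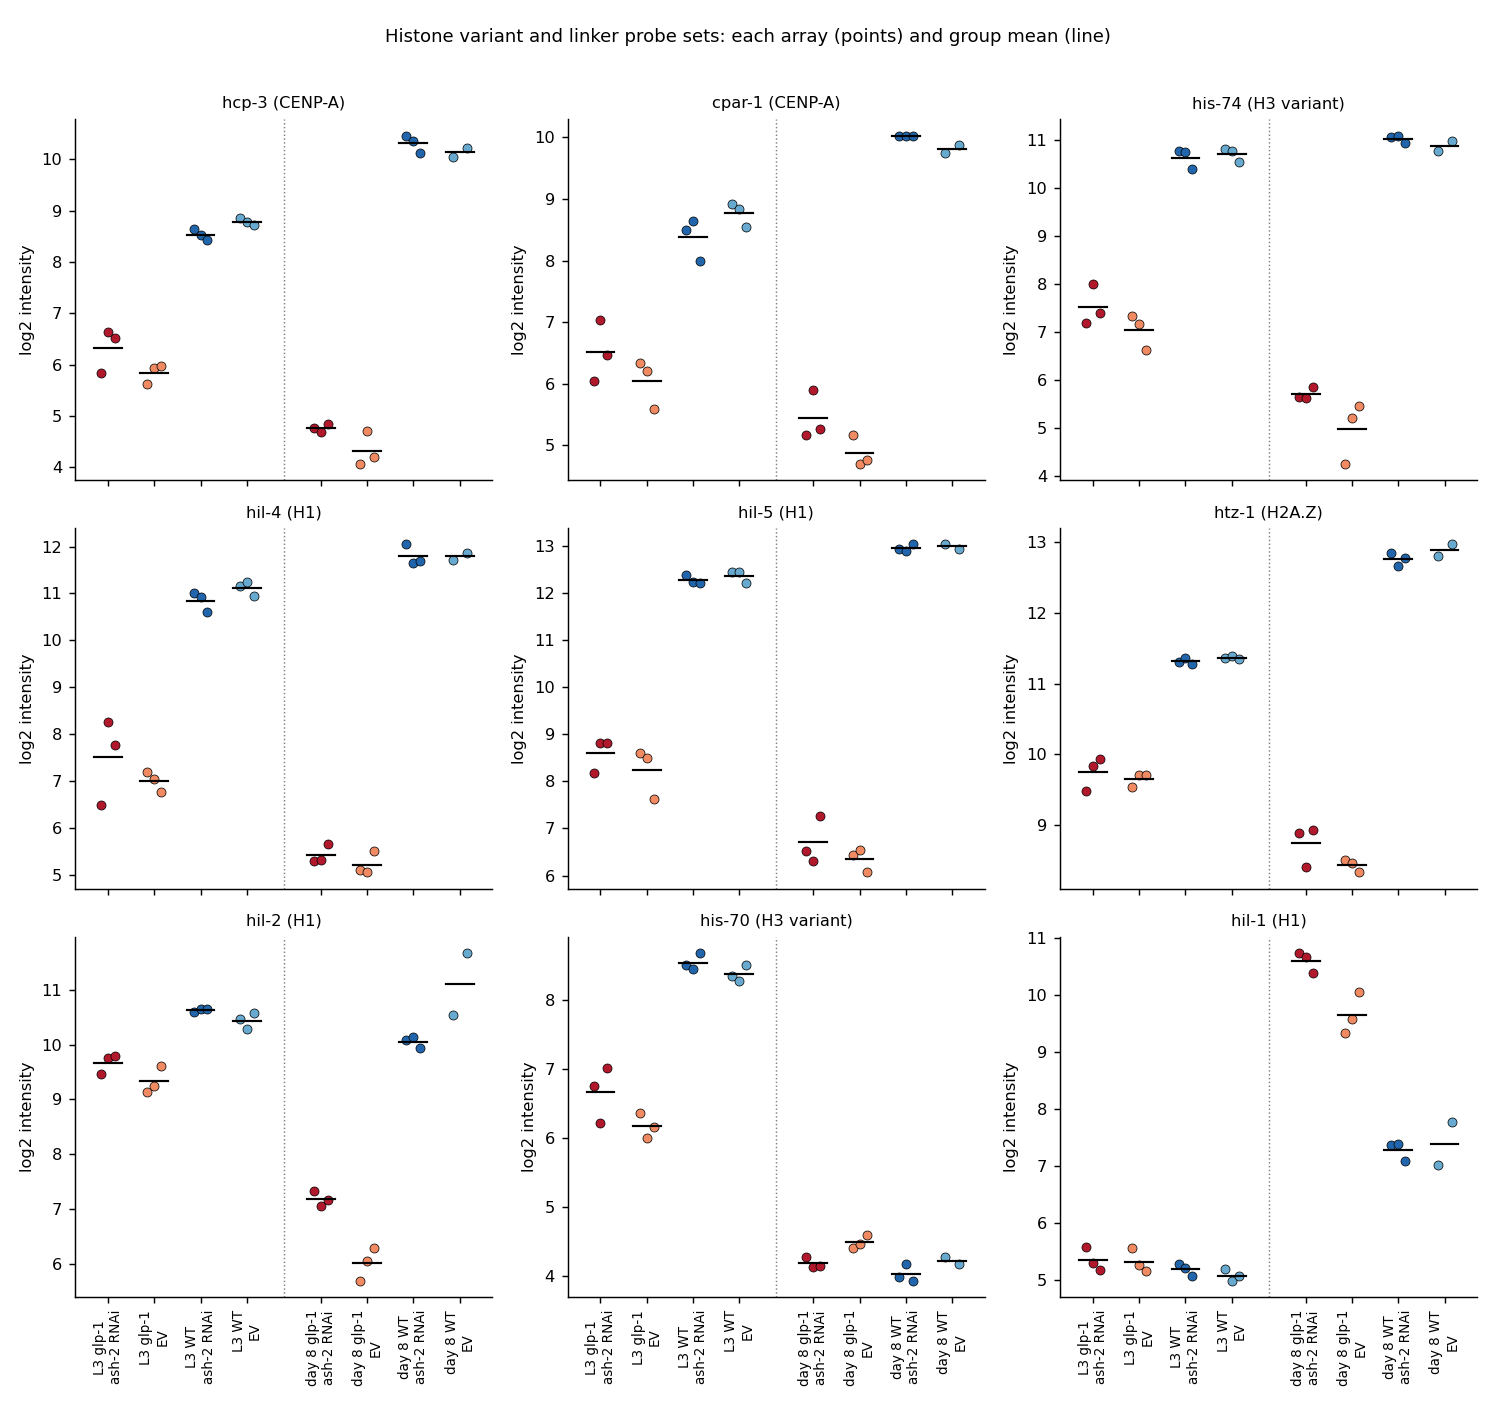
Log2 intensity of 9 variant and linker probe sets on each array (points) with the group mean (line), for the 4 L3 groups left of the dotted line and the 4 day 8 groups right of it. hcp-3, cpar-1, his-74, hil-4, hil-5, htz-1 and hil-2 are lower on every glp-1 array than on any WT array of the same age, his-70 is so at L3 alone, and hil-1 is higher on every day 8 glp-1 array than on any day 8 WT array.

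hil-2, his-24, hil-3, hil-6 and hil-7 had their larger genotype differences on day 8. hil-2 read 5.69, 6.05 and 6.29 in day 8 glp-1 EV and 10.54 and 11.67 in day 8 WT EV, a change of -5.09 ± 0.28 (adjusted p = 2.14e-08), against -1.11 at L3. his-24, the H1.1 linker, known for a role in silencing germline chromatin, read 8.68, 8.65 and 8.41 in day 8 glp-1 EV and 10.68 and 11.23 in day 8 WT EV on its probe set that is not shared. It fell by 2.38 on day 8 (adjusted p = 1.78e-07), while at L3 it was 0.56 higher in glp-1 (adjusted p = 0.000572), or 0.07 with arrays centred on muscle and neuron genes (adjusted p = 0.564). The second his-24 probe set fell by 3.16 on day 8 and was 0.30 higher at L3. hil-3 fell by 2.68 and 2.59 on its 2 probe sets on day 8 and had changes of 0.13 and 0.16 at L3 that did not pass. The 3 hil-7 probe sets fell by 1.67 to 2.76 on day 8, with changes of 0.03 to 0.07 at L3 that did not pass, and hil-6 fell by 0.99 on day 8. hil-8 had small falls at both ages, with changes of -0.46 at L3 and -0.38 on day 8. It was dim, at 4.47 to 5.20 on L3 EV arrays and 3.98 to 4.58 on day 8 EV arrays. Those values are under the array medians, so the sizes of its falls are uncertain.

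One linker went the other way. hil-1 read 9.33, 9.58 and 10.05 in day 8 glp-1 EV and 7.02 and 7.77 in day 8 WT EV, a rise of 2.26 ± 0.24 (4.80-fold, adjusted p = 6.98e-06). At L3 hil-1 was dim in both genotypes, at 5.16 to 5.56 in glp-1 EV and 4.99 to 5.19 in WT EV. With the arrays centred on muscle and neuron genes its day 8 rise was 0.97 (adjusted p = 0.00342).

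The H3 variants besides his-74 did not move as one. his-71 and his-72 encode H3.3. his-72 averaged 8.57 ± 0.22 and 10.64 ± 0.08 on its 2 probe sets in day 8 glp-1 EV (SD, n = 3) and 10.18 ± 0.34 and 12.48 ± 0.37 in day 8 WT EV (n = 2), falls of 1.60 and 1.83. his-71 was higher in glp-1, at 7.74 to 8.31 on day 8 glp-1 EV arrays against 6.13 and 6.94 on day 8 WT EV arrays, a rise of 1.43 on day 8 and 0.71 at L3 (adjusted p = 0.000887 and 5.38e-05). Neither rise of his-71 passed when arrays were centred on muscle and neuron genes, where they were 0.13 on day 8 and 0.22 at L3 (adjusted p = 0.658 and 0.0757). his-70 fell by 2.20 at L3, with 6.36, 6.0 and 6.16 in glp-1 EV and 8.35, 8.27 and 8.50 in WT EV (adjusted p = 1.53e-07), and on day 8 it was dim in every group (3.93 to 4.59). his-69 and his-73 were dim on every array, at 4.05 to 5.18 and 3.51 to 3.99, and passed in none of the comparisons made.

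The core histones split by the chromosome their genes lie on. On day 8 under EV, all 15 probe sets of chromosome IV genes fell in glp-1 (median -1.29, from -3.22 to -0.46), as did both of chromosome I. Among these, his-67 (chromosome I) read 3.95 to 4.48 on day 8 EV arrays, and his-64/his-56/his-46/his-60 (chromosome IV) read 4.28 to 5.44. Both were near or under the array medians. Of the 18 probe sets of chromosome V genes, 14 rose and 3 fell (median 1.18). Of the 4 for chromosome II, 3 rose (0.79 to 2.45), and the 1 for chromosome X rose by 2.13. The 3 chromosome V probe sets that fell all read H3 genes (his-2, his-6 and his-27/his-17/his-49, from -1.03 to -0.75), so that all 11 H3 probe sets of the core either fell (8) or did not pass (3). No test of the difference between clusters was made, and probe sets of near-identical copies are not independent of each other.

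These directions depend on the scaling. Muscle and neuron genes were themselves 1.29 higher (median) in day 8 glp-1 EV, and centring each array on them put the median of all probe sets at -1.26, against 0.04 as deposited. Under that centring the chromosome IV probe sets still all fell (15 of 15), while 8 of the 18 chromosome V probe sets stayed above 0, with 3 rises and 5 falls. The rise of his-37, an H4 gene of chromosome V on a probe set that is not shared, was 2.13 as deposited and 0.84 after the centring. Its values were 11.44, 11.55 and 11.31 in day 8 glp-1 EV and 9.08 and 9.52 in day 8 WT EV (adjusted p = 8.39e-08). The rise of his-10/his-26/his-14, H4 genes of chromosome II, was 2.45 as deposited and 1.16 after it.

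**Figure D3:**
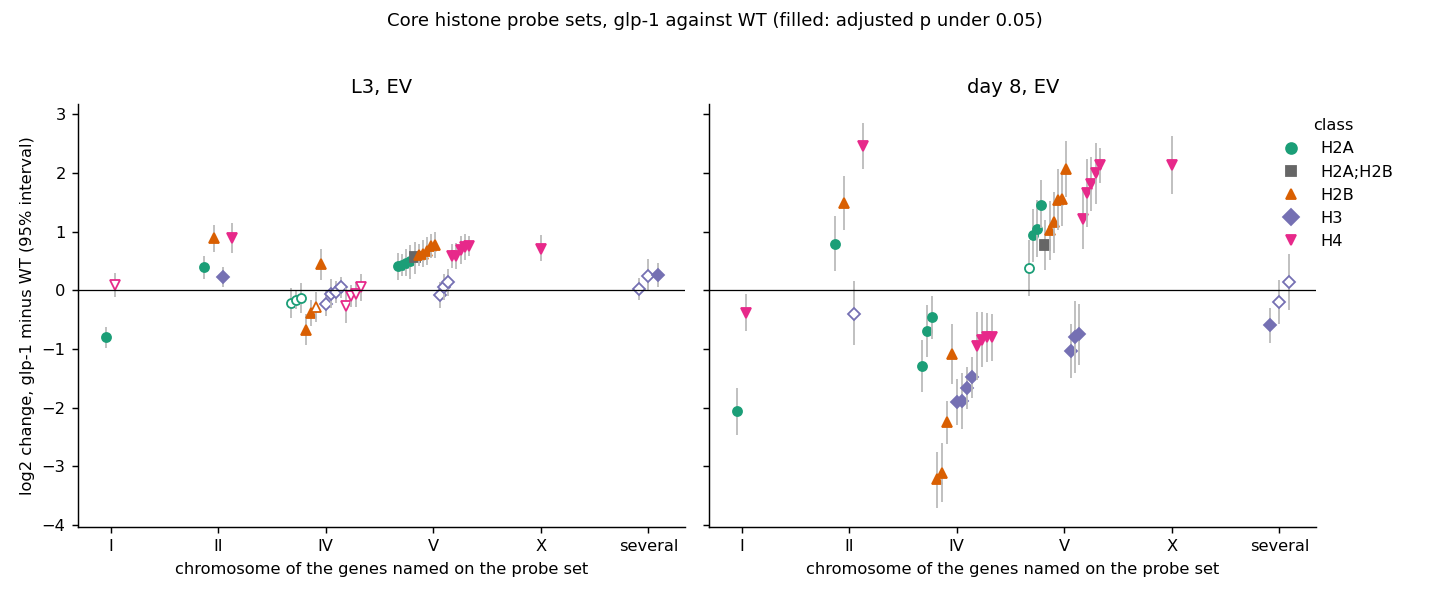
Log2 change in glp-1 against WT under EV (vertical axis, with 95% interval) for the 43 core histone probe sets, by chromosome of the genes they name and by class (symbol), at L3 (left) and day 8 (right). On day 8 all 15 chromosome IV probe sets lie below 0 and 15 of 18 of chromosome V above it, of which 8 stay above 0 when arrays are centred on muscle and neuron genes.

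The strongest core falls were those of H2B genes on chromosome IV. The 2 probe sets of his-66/his-58/his-48 fell by 3.22 and 3.11 on day 8 under EV, with 6.59, 7.0 and 7.14 in glp-1 EV and 9.86 and 10.41 in WT EV on the first. his-62 (H2B) fell by 2.25, his-32 (H3) by 1.90 and his-68, an H2A gene of chromosome I, by 2.06. Among the largest rises were his-38, an H4 gene of chromosome X (2.13), his-41, an H2B gene of chromosome V (2.07), his-28/his-50 (H4, 1.99) and the 2 probe sets of his-18/his-28/his-50/his-5 (H4, 1.81 and 1.66).

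At L3 the same clusters differed by less. Under EV, 15 of the 18 chromosome V probe sets rose in glp-1 (median 0.58), all 4 of chromosome II rose (0.22 to 0.89), and on chromosome IV there were 1 rise and 2 falls (median -0.13). The largest rises were 0.89 each for his-44/his-11/his-15 (H2B) and his-10/his-26/his-14 (H4), 0.77 for his-20/his-8/his-54/his-22/his-52 (H2B), 0.76 for his-1 (H4) and 0.75 for his-4 (H2B). Centred on muscle and neuron genes, the count of rises among the 67 was 6, against 25, and that of falls 40, against 14.

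Between the ages, which share no arrays, 19 probe sets rose in glp-1 EV at both L3 and day 8 (76% of the L3 rises and 95% of those on day 8) and 13 fell at both (92.9% and 32.5%). For this and the other overlaps in the text, the matching overlap over all probe sets is not given. Whether the histone overlaps exceed it is therefore not known. Opposite calls were made for 3: both his-24 probe sets and his-34/his-29 (H2B, chromosome IV), which was 0.44 higher at L3 and 1.08 lower on day 8. None of the 3 stayed an L3 rise with arrays centred on muscle and neuron genes, where the L3 changes were 0.07 and -0.19 for his-24 and -0.05 for his-34/his-29. The difference between the genotype effects at the 2 ages was tested directly, as the day 8 change minus the L3 change. It passed for 53 of 67 probe sets, 15 above 0 and 38 below (79.1%; of all probe sets 52.7% passed, 24.5% above 0 and 28.2% below). Under the muscle and neuron centring 6 were above 0 and 48 below, and the median of the 67 was -1.54, against -0.73 as deposited. The most negative were hil-2 (-3.99), his-24 (-3.46 and -2.94) and hcp-3 (-2.88). The most positive were his-70 (2.47), hil-1 (2.02), his-10/his-26/his-14 (1.56) and his-37 (1.55). The value of his-70 is its L3 fall set against day 8 arrays on which it was dim in both genotypes, and hil-1 was dim in both at L3.

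Under ash-2 RNAi the genotype differences were mostly alike in direction. At L3 14 probe sets were higher and 19 lower in glp-1 than in WT (33 of 67, or 49.3%; of all probe sets 48.9% passed, 28.1% higher and 20.8% lower). All 14 of these rises and 14 of these falls were also called under EV. With arrays centred on muscle and neuron genes there were 0 rises and 45 falls at L3, so the L3 rises rest on the deposited scale. On day 8 24 were higher and 28 lower (52 of 67, or 77.6%; of all 53.6% passed, 28.2% higher and 25.4% lower). Of the 40 falls under EV on day 8, 28 also fell under ash-2 RNAi. These overlaps, too, have no count over all probe sets beside them. The largest falls on day 8 again belonged to hil-4 (-6.38), hil-5 (-6.25), hcp-3 (-5.54), his-74 (-5.33) and cpar-1 (-4.58), followed by htz-1 (-4.02) and hil-2 (-2.88). hil-1 (3.31), his-10/his-26/his-14 (3.30) and his-44/his-11/his-15 (3.25) had the largest rises. his-34/his-29 changed sides, at 1.69 higher in glp-1 under ash-2 RNAi and -1.08 under EV.

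The next question is what ash-2 RNAi did within a genotype at L3. In L3 WT, 14 of the 67 probe sets rose and 0 fell (20.9%, against 0.328% of all probe sets, of which 0.217% higher and 0.111% lower). At an unadjusted p under 0.05, 38 of the 67 were higher and 0 lower. By that threshold 1543 of all 22548 probe sets passed in either direction. All 14 read core histones: 6 H2B, 4 H4, 2 H2A and 2 H3. By chromosome they were 9 of 18 on V, 3 of 15 on IV and 2 of 4 on II. The median over the 67 was 0.32, against 0.01 over all probe sets, while the variants and linkers had a median of 0.00.

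The 2 probe sets of his-20/his-8/his-54/his-22/his-52 (H2B) had the largest rises in L3 WT, 1.04 ± 0.10 and 0.95 ± 0.11 (adjusted p = 0.000241 and 0.00088). The first read 10.5, 10.32 and 10.5 under ash-2 RNAi and 9.33, 9.35 and 9.52 under EV, a 2.06-fold difference between groups that did not overlap. his-4 (H2B) read 8.43, 8.36 and 8.55 under ash-2 RNAi and 7.44, 7.52 and 7.70 under EV, a rise of 0.89 (adjusted p = 0.000318). his-39 (H2B) rose by 0.80, his-34/his-29 (H2B) by 0.78 and his-18/his-28/his-50/his-5 (H4) by 0.73 and 0.65. The H2A set his-19/his-7/his-53/his-21/his-51 rose by 0.69 and his-28/his-50 (H4) by 0.67. That H2A set, his-28/his-50 and his-34/his-29 lost their calls when any of several single arrays was left out, with adjusted p up to 0.229, 0.112 and 0.0718.

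The number of rises in L3 WT moved with the arrays. It was 6 to 11 when an array was left out: 7 without EV 1, and 6 each without EV 2, ash-2 RNAi 1 and ash-2 RNAi 3. The replicate numbers paired these 2 groups, and with number as a block the count was 17, all higher. A fit of these 6 arrays alone with the block gave 31 higher and 1 lower. None of the 16 probe sets that are not shared passed in L3 WT. In L3 WT 0 of 33 S phase genes, 0 of 20 oocyte genes and 0 of 24 germ cell genes passed in limma's test, but their array means were all lower under ash-2 RNAi without overlap. S phase genes averaged 8.11 to 8.16 under ash-2 RNAi and 8.22 to 8.28 under EV (median change -0.12). Oocyte genes averaged 9.37 to 9.64 under ash-2 RNAi and 9.85 to 10.11 under EV (median -0.47, from -0.73 to -0.27 over the 20), and germ cell genes 8.21 to 8.24 and 8.32 to 8.49 (median -0.15). The part of these shifts in the histone result was not tested.

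In L3 glp-1, 6 of the 67 rose and 0 fell (8.96%, against 0.798% of all probe sets, of which 0.501% higher and 0.297% lower). At an unadjusted p under 0.05, 30 of the 67 were higher and 0 lower. By that threshold 2826 of all 22548 probe sets passed in either direction. The 6 that rose were hil-3 (0.62), both probe sets of his-20/his-8/his-54/his-22/his-52 (0.58 and 0.51), his-4 (0.54), his-39 (0.52) and his-31 (0.50), an H4 gene of chromosome IV. his-4 read 8.94, 8.82 and 8.79 under ash-2 RNAi and 8.21, 8.30 and 8.41 under EV (adjusted p = 0.0216). Of the 6, 4 also rose in L3 WT (66.7%, and 28.6% of the 14 there). Each of the 6 lost its call when some single array was left out, and the count was 0 without EV 1, 0 without ash-2 RNAi 3, 1 without EV 2, 3 without ash-2 RNAi 2 and 10 without EV 3. The 3 ash-2 RNAi arrays differed in oocyte genes, which averaged 6.07 to 8.19, against 5.97 to 7.39 in L3 glp-1 EV. Germ cell genes differed less, at 5.47 to 5.86 against 5.5 to 5.67 in EV, as did sperm genes, at 6.42 to 6.74 against 6.1 to 6.45. The part of these differences in the result was not tested.

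Whether the L3 effect differed between genotypes was tested as the change in glp-1 minus that in WT. In limma's test it passed for 0 of 67 probe sets and for 0% of all probe sets. At an unadjusted p under 0.05 there were 12 members (1859 of all probe sets), and 2 members passed when L3 glp-1 ash-2 RNAi 1 was left out. The smallest p belonged to his-1 (-0.42, 95% interval -0.66 to -0.18, adjusted p = 0.434), his-20/his-8/his-54/his-22/his-52 (-0.54, -0.85 to -0.22), hcp-3 (0.74, 0.22 to 1.26) and his-43/his-12/his-16 (H2A, -0.34, -0.60 to -0.07). hcp-3 had changes of 0.49 in L3 glp-1 and -0.25 in L3 WT, neither of which passed.

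**Figure D4:**
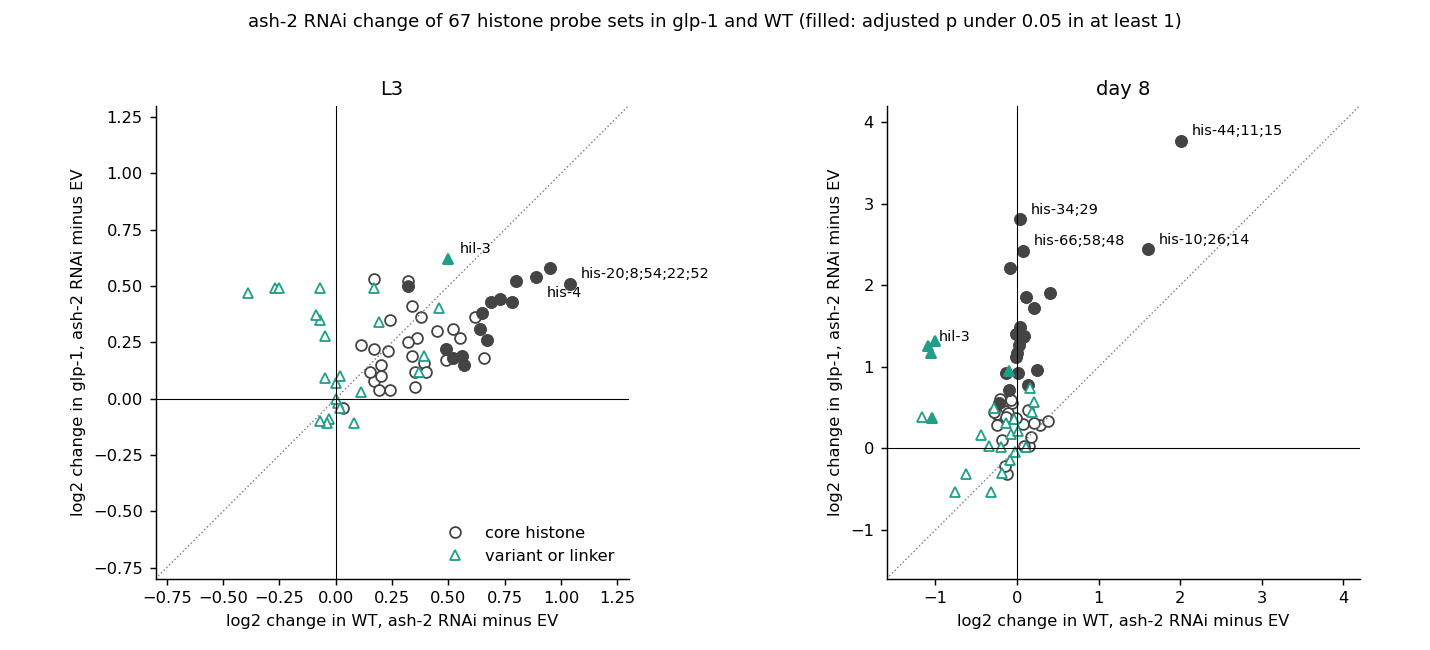
Change under ash-2 RNAi in WT (horizontal axis, log2) and in glp-1 (vertical axis, log2) of the 67 probe sets at L3 (left) and day 8 (right), with circles for core histones, triangles for variants and linkers, and filled symbols where at least 1 of the changes passed. At L3 most core histones lie right of 0 in WT and above 0 in glp-1; on day 8 they spread up to 3.77 in glp-1 while 2 exceed 1 in WT.

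On day 8 few histone probe sets passed in WT. There 2 probe sets rose and 2 fell (5.97%, against 1.47% of all probe sets, of which 0.577% higher and 0.891% lower), and the median over the 67 was -0.06. Both rises were in the chromosome II cluster. his-44/his-11/his-15 (H2B) read 7.83, 7.75 and 7.77 under ash-2 RNAi and 5.55 and 6.0 under EV, a rise of 2.01 ± 0.21 (4.02-fold, adjusted p = 0.00077). his-10/his-26/his-14 (H4) read 7.99, 8.30 and 8.38 under ash-2 RNAi and 6.41 and 6.82 under EV, a rise of 1.60 ± 0.18 (adjusted p = 0.00135). These 2 rises passed whichever array was left out. In simulated data for this comparison, 12 of 50 changes of 0.5 and 32 of 50 changes of 1 were recovered. Smaller changes in day 8 WT can therefore have been missed.

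The falls in day 8 WT were in linkers and rested on single arrays. his-24 read 9.95, 9.89 and 9.91 under ash-2 RNAi and 10.68 and 11.23 under EV on the probe set that is not shared, a fall of 1.04 (adjusted p = 0.0116). hil-3 fell by 1.09 on 1 of its probe sets (adjusted p = 0.0386). The second probe sets of these genes (-1.16 and -1.01) and that of hil-2 (-1.05) had values of like size that did not pass, with adjusted p of 0.115, 0.123 and 0.122. Without EV array 2, which lay above array 1 for nearly all members, there were 2 rises and 0 falls, the fall of his-24 being 0.76 and that of hil-3 0.71. Without EV array 1 there were 2 rises and 7 falls, and without ash-2 RNAi 2 there were 2 rises and 0 falls.

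In day 8 glp-1 25 probe sets rose under ash-2 RNAi and 0 fell (37.3%; of all probe sets 14.8% passed, 7.18% higher and 7.63% lower). At an unadjusted p under 0.05, limma's test had 41 of the 67 higher and 3 lower. By that threshold 6311 of all 22548 probe sets passed in either direction. Of the 10 H2B probe sets 9 rose, as did 6 of 11 for H3, 4 of 9 for H2A, 2 of 12 for H4 and 4 of 13 for H1, but 0 of the 11 for H3 variants, CENP-A and H2A.Z. All 4 probe sets of chromosome II rose (median 2.08), with 11 of 15 on chromosome IV (0.92) and 4 of 18 on chromosome V (0.44). The median over the 67 was 0.45, against 0.03 over all probe sets.

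The chromosome II cluster led again. his-44/his-11/his-15 (H2B) read 11, 11.06 and 11.04 under ash-2 RNAi and 6.83, 7.65 and 7.30 under EV, a rise of 3.77 ± 0.18 (13.7-fold, adjusted p = 1.07e-06). That placed it above every other array of either genotype on day 8. his-10/his-26/his-14 (H4) read 11.66, 11.39 and 11.51 under ash-2 RNAi and 8.82, 9.28 and 9.12 under EV, a rise of 2.44 ± 0.16 (5.44-fold). his-42 (H3) rose by 1.72 and his-43/his-12/his-16 (H2A) by 0.96, so that all the core classes of that cluster rose.

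On chromosome IV the H2B genes rose most. his-34/his-29 read 9.65, 9.56 and 9.32 under ash-2 RNAi and 6.17, 6.8 and 7.13 under EV, a rise of 2.81 ± 0.20 (7.0-fold, adjusted p = 1.19e-05). The 2 probe sets of his-66/his-58/his-48 rose by 2.42 and 2.21, the first reading 9.65, 9.27 and 9.40 under ash-2 RNAi and 6.63, 7.08 and 7.35 under EV. his-62 (H2B) rose by 1.86. his-66/his-58/his-48 and his-62 also had the largest core falls in glp-1 against WT under EV on day 8. Both comparisons use the same day 8 glp-1 EV arrays, so low values on those arrays enter the rise and the fall alike. Under ash-2 RNAi his-66/his-58/his-48 was still lower in glp-1, with changes of -0.92 and -0.76. Elsewhere the H3 probe set that names 14 genes of 3 chromosomes rose by 1.90 and his-68 (H2A, chromosome I) by 1.49.

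**Figure D5:**
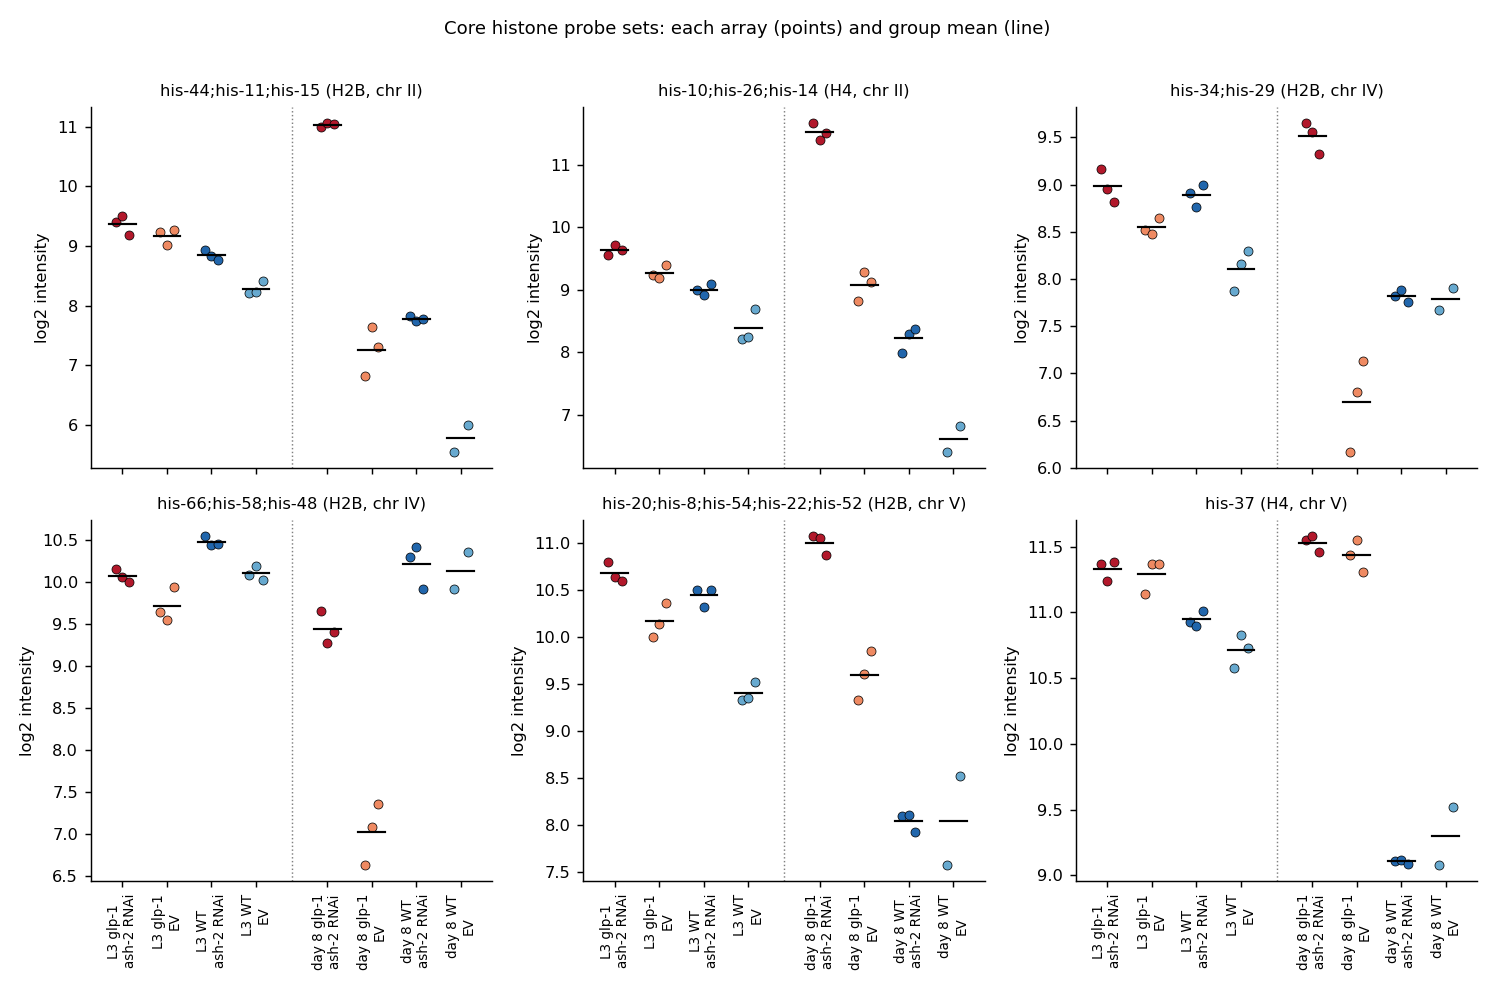
Log2 intensity of 6 core histone probe sets on each array (points) with the group mean (line), for the 4 L3 groups left of the dotted line and the 4 day 8 groups right of it. The 3 day 8 glp-1 ash-2 RNAi arrays are above all other day 8 arrays for both chromosome II probe sets, his-34/his-29 and his-20/his-8/his-54/his-22/his-52. For his-66/his-58/his-48 they lie above glp-1 EV and below WT.

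On chromosome V 4 of 5 H2B probe sets rose and none of the others passed. his-20/his-8/his-54/his-22/his-52 rose by 1.40 and 1.36, his-4 by 1.38 and his-39 by 1.17. The 5 H4 probe sets of that chromosome had changes of 0.03 to 0.58 and the 3 H3 probe sets 0.38 to 0.60, none of which passed. his-41 (H2B), his-35 (H2A) and his-37 (H4), the single-gene probe sets that are not shared, had changes of -0.32, -0.22 and 0.10 that did not pass. Of the 16 probe sets that are not shared, 3 rose, all linkers: hil-3 (1.32, with 1.25 on its shared probe set), hil-2 (1.17) and hil-1 (0.95). hil-2 read 7.32, 7.05 and 7.16 under ash-2 RNAi and 5.69, 6.05 and 6.29 under EV, still far below WT.

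Genes that supply and use histones were read beside these values. Of 33 S phase genes 11 rose in day 8 glp-1 under ash-2 RNAi and 0 fell (median 0.46), with array means of 5.39 to 5.63 under ash-2 RNAi, 5.02 to 5.07 under EV and 9.61 to 9.88 on day 8 WT arrays. Those with the smallest p were rfc-2 (0.77, a clamp loader subunit), pcn-1 (0.93, the sliding clamp PCNA), mcm-7 (1.08, a subunit of the replicative helicase) and orc-5 (0.86, of the origin recognition complex). Of 20 oocyte genes 6 rose, with array means of 6.07 to 6.77 under ash-2 RNAi and 5.74 to 5.77 under EV, and 4 of 24 germ cell genes rose, with means of 4.98 to 5.06 and 4.75 to 4.89. The S phase and germ cell means of day 8 glp-1 EV were near or under the array medians of 4.969 to 5.012. The sizes of the rises in these 2 lists are therefore uncertain. None of the 12 early embryo genes rose and 1 fell, and 5 of 10 intestine genes fell. The early embryo genes averaged 4.74 to 4.90 under ash-2 RNAi, 4.65 to 4.71 under EV and 4.69 to 4.81 on day 8 WT arrays. These means are under the array medians in WT as well, so the list mean says little about embryo content. Single genes of the list did differ in glp-1 against WT on day 8 under EV. There 1 of the 12 was higher, 5 were lower and 6 did not pass (-1.37 to 3.37). The part of these cell types in the histone result was not tested. Of 19 histone supply genes 5 rose: lin-53 (0.80) and rba-1 (0.86), RbAp46/48-type histone chaperones, knl-2 (0.92), which loads CENP-A, hmg-4 (0.53), a subunit of the FACT complex, and gfl-1 (0.67). In glp-1 against WT under EV 18 of the 19 fell at both ages, with medians of -1.56 at L3 and -3.73 on day 8. On day 8 cdl-1, which encodes the stem-loop binding protein of histone mRNA, fell by 6.08 and nasp-2, an H3 and H4 chaperone, by 6.83.

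The day 8 response differed between genotypes by a direct test. The change in glp-1 minus that in WT passed for 18 of 67 probe sets, all above 0 (26.9%; of all probe sets 4.0% passed, 1.67% above 0 and 2.33% below). The largest were his-34/his-29 (2.77 ± 0.31, adjusted p = 0.000964), his-66/his-58/his-48 (2.35 and 2.30), hil-3 (2.34 and 2.33), hil-2 (2.22), his-44/his-11/his-15 (1.77) and his-62 (1.75). Of these, hil-3 and hil-2 combine a rise in glp-1 with a lower value in WT, and his-34/his-29 and his-66/his-58/his-48 combine a rise in glp-1 with changes of 0.04 and 0.07 in WT (95% intervals -0.47 to 0.54 and -0.43 to 0.58). his-10/his-26/his-14, which rose in both genotypes, did not pass (0.84). The count was 10 to 26 when an array was left out: 10 without array 2 of WT under ash-2 RNAi, and 11 each without its array 3, array 2 of WT EV, array 2 of glp-1 EV, or array 1 or 2 of glp-1 under ash-2 RNAi.

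The change under ash-2 RNAi was also compared between ages, as day 8 minus L3. In glp-1 it passed for 19 probe sets, 18 above 0 and 1 below (28.4%; of all probe sets 9.73% passed, 4.18% above 0 and 5.55% below). his-44/his-11/his-15 (3.58), his-34/his-29 (2.38), his-10/his-26/his-14 (2.08), his-66/his-58/his-48 (2.06 and 1.68) and the 14-gene H3 probe set (1.78) had the largest differences. his-70 was the one below 0 (-0.79), and it did not pass without L3 glp-1 ash-2 RNAi 3. In WT 8 passed, 2 above 0 and 6 below (11.9%; of all 1.55% passed, 0.537% above 0 and 1.01% below). Those above 0 were his-44/his-11/his-15 (1.45) and his-10/his-26/his-14 (0.98). Those below 0 were both probe sets of hil-3 (-1.59 and -1.46), both of his-24 (-1.53 and -1.43), hil-2 (-1.24) and his-20/his-8/his-54/his-22/his-52 (-1.05). The last 2 lost their calls on leaving out any of 10 single arrays, his-10/his-26/his-14 on leaving out any of 6, and hil-3 (-1.46) and his-24 (-1.53) without day 8 WT EV 2. The WT count was 4 without day 8 WT EV 2, 23 without day 8 WT EV 1, and 5 each without L3 WT EV 3, L3 WT ash-2 RNAi 1 or 2, or day 8 WT ash-2 RNAi 2 or 3.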

How the data were processed

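RNA of whole worms was labelled with biotin, and each sample has 1 array, per the labels' protocols. Which primer was used is not given in the sources used here. Core histone changes may therefore belong to all of these transcripts or only to those with a poly(A) tail, which was not tested. From the arrays the authors deposited 1 log2 intensity for each probe set, and the submitters' processing notes name RMA. Each age was fitted apart (12 and 11 arrays) with limma 3.58.1 in R 4.3.3, one mean per group, default empirical Bayes settings, two-sided tests and Benjamini-Hochberg adjustment over all 22548 probe sets; contrasts between ages used all 23 arrays. Errors after ± are standard errors unless named SD.

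The members and lists were chosen with earlier results of these data known. Probe sets took their gene names from the platform's annotation, updated through the RefSeq gene table (assembly WBcel235), which also gave chromosomes. Proteins were not used here, so classes were assigned by gene name and checked against gene-model length, where 15 of 15 H3 genes and 15 of 16 H4 genes had their class's length (411 and 312 bases), as did 15 of 17 H2A genes (384) and 10 of 17 H2B genes (372). Named probe sets are, in each comparison, the 8 largest passing changes in each direction, the 4 smallest p where fewer than 3 pass, all variants and linkers, and up to 4 passing genes of each list; the text gives most of these and some more for context. Of the supply list chaf-2, and of the S phase list evl-18, were not analysed here. Sperm genes (15 of 20 analysed here) were read as well: in limma's test 0 of 15 passed in the 4 comparisons of ash-2 RNAi with EV, 1 was lower in the comparison of that change between ages in glp-1, and 14 were lower in L3 glp-1 EV than in L3 WT EV.

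Alternatives changed 1 choice at a time: the normalization (quantile), the centring of arrays (their own median, or the mean of 44 muscle and neuron genes), the filter (without the dimmest 40 percent, or without shared probe sets), limma's settings (trend and robust, array weights, a block for replicate number) and the arrays used (those compared, all 23, or 1 fewer). Replicate numbers were checked by correlating deviations from group means: the threshold of 0.1 was passed by every pair for L3 WT ash-2 RNAi with L3 WT EV alone (0.142 to 0.487). The fit was tested on simulated data: for L3 WT, 29, 48, 49 and 50 of 50 probe sets changed by 0.5, 1, 2 and 4 were recovered, and for day 8 WT 12, 32, 48 and 50. Precision is limited by how many arrays there are.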

Additional observations from a re-analysis of the deposited data

Results flagged for a closer look

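Effects under the same contrast differed between genotypes or ages, by a test of the difference itself, in the following cases. The ash-2 RNAi change on day 8 was larger in glp-1 than in WT for 18 probe sets, among them his-34/his-29 (2.77), his-66/his-58/his-48 (2.35) and both hil-3 probe sets (2.34 and 2.33). In WT the ash-2 RNAi change differed between day 8 and L3 for 8 probe sets, with his-44/his-11/his-15 (1.45) and his-10/his-26/his-14 (0.98) above 0. hil-3 (-1.59 and -1.46) and his-24 (-1.53 and -1.43) were below 0 in that contrast, and of these -1.46 and -1.53 became -0.92 and -0.88 without day 8 WT EV 2 and did not pass.

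In glp-1 the ash-2 RNAi change differed between the ages for 19 probe sets, led by his-44/his-11/his-15 (3.58), his-34/his-29 (2.38), his-10/his-26/his-14 (2.08) and his-66/his-58/his-48 (2.06), with his-70 alone below 0 (-0.79). The genotype effect under EV differed between the ages for 53 probe sets. It was above 0 for his-70 (2.47), which was dim in every day 8 group, hil-1 (2.02), dim in both genotypes at L3 under EV, his-10/his-26/his-14 (1.56) and his-37 (1.55), and below 0 for hil-2 (-3.99), his-24 (-3.46 and -2.94) and hcp-3 (-2.88). Groups of 2 or 3 arrays were too small for a test of single outlying arrays.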

How the results depend on the processing

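Every call in the text rests on groups of 2 or 3 arrays, and 51 of 67 probe sets are shared. Without shared probe sets, which leaves 16 members, the counts were 0 (L3 WT, ash-2 RNAi), 0 (L3 glp-1), 1 (day 8 WT), 3 (day 8 glp-1), 10 and 10 (glp-1 against WT at L3 under EV and ash-2 RNAi), 13 and 11 (the same on day 8), 3 (RNAi by genotype, day 8), 3 and 3 (RNAi by age, WT and glp-1) and 13 (genotype by age). For ash-2 RNAi in L3 WT (14), trend and robust settings gave 22, array weights 32, all 23 arrays in 1 fit 3, and the replicate block with only these 6 arrays 32. For L3 glp-1 (6), array weights gave 2, only the arrays compared 0, all 23 arrays 0 and that block 1. For day 8 WT (4), all 23 arrays gave 7 and that block 2, and for the day 8 RNAi by genotype contrast (18), all 23 arrays gave 29. For RNAi by age that block gave 5 in WT (8) and 12 in glp-1 (19). The block with only the arrays compared was chosen after seeing the data; samples of other groups share only a number, and with the number as a block in the fit of an age no other count moved by over 1.5 times. Without shared probe sets fewer can pass by construction, and the cause of the other shifts was not tested.

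Leaving out each array gave 6 to 11 (ash-2 RNAi, L3 WT), 0 to 10 (L3 glp-1), 2 to 9 (day 8 WT), 24 to 29 (day 8 glp-1), 36 to 39 and 28 to 33 (glp-1 at L3, EV and ash-2 RNAi), 54 to 58 and 48 to 52 (glp-1 on day 8), 0 to 2 and 10 to 26 (RNAi by genotype, L3 and day 8), 4 to 23 and 13 to 21 (RNAi by age, WT and glp-1) and 48 to 53 (genotype by age). Under muscle and neuron centring the changes of glp-1 against WT took the other sign for 8 called probe sets at L3 under EV, 9 at L3 under ash-2 RNAi, 7 on day 8 under EV and 0 on day 8 under ash-2 RNAi, and the genotype by age contrast for 4. At L3 under ash-2 RNAi these include his-18/his-28/his-50/his-5 (-0.01), his-4 (-0.05) and his-37 (-0.07). That centring split the calls, higher and lower, as 6 and 40 (L3 EV), 0 and 45 (L3 ash-2 RNAi), 6 and 48 (day 8 EV) and 21 and 43 (day 8 ash-2 RNAi), and moved the median of all probe sets to -0.38, -0.38, -1.26 and -0.92. Quantile normalization, centring on array medians and leaving out dim probe sets kept every count of calls within 1.5 times. The deposited values carry no background call, so for dim probe sets such as his-69 and his-73 a difference may not have been detectable.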
